A study of Mus musculus with 6 samples.

Results

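The genes described here are 9 genes, mostly of the calcium-binding and cytoskeletal kind: S100a4, S100a6, S100a10 and S100a11 of the S100 family, the annexin Anxa2, the galectins Lgals1 and Lgals3, the intermediate filament gene Vim and the LIM-domain gene Crip1. They were taken by symbol from the raw unique molecular identifier (UMI) table, in which all 9 were present among 14098 genes. Their levels were read across cell states that were set by markers other than these 9. The cells were single EGFP+ regulatory T cells (Treg cells), which express Foxp3 and hold back immune responses, sorted from mouse spleen and sequenced by droplet-based 3′ single-cell RNA-seq. The 6 samples comprised 3 from cKO mice, Bach2fl/fl Foxp3EGFP-Cre-ERT2, and 3 from WT mice, Bach2+/+ Foxp3EGFP-Cre-ERT2, all on a C57BL/6 background, aged 18 to 21 weeks and given tamoxifen. Both groups thus carried the reporter and the tamoxifen-activated Cre recombinase, which is expressed from the Foxp3 locus, and they differed in whether Bach2, a transcriptional repressor of lymphocytes, could be deleted. Whether a sample came from 1 mouse or from pooled mice is not stated in the labels.

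The count table named its columns by cell barcode with a suffix from 1 to 6, and no column name tied a suffix to a sample. The genotype of each barcode set is therefore not known here, no comparison of cKO with WT was made, and every level below is over all sets or within 1 set. Since the table then counts as 1 sample, no p-value was computed. Intervals cover counting error only, and the direction of the ratio in each of the 6 sets serves as the check on a pooled ratio. Ratios of single sets can lie outside the interval of the pooled ratio.

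S100 proteins are small calcium sensors with paired EF-hand motifs that bind partner proteins when calcium rises. S100a10 is the exception that no longer needs calcium and forms a tetramer with Anxa2, a phospholipid-binding annexin, at the inner face of the plasma membrane. Galectins are secreted and cytosolic lectins that bind β-galactosides on glycoproteins. Vimentin makes the intermediate filament network of lymphocytes and other mesenchymal cells, and Crip1 is a small protein with a single LIM zinc-binding domain. In T cells these genes are known as a group that is transcribed more in activated, effector or memory cells than in naive ones.

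All 9 genes lie on the plus strand of mm10 by the GENCODE vM21 annotation. The 4 S100 genes form 2 neighbouring pairs on chromosome 3. S100a4 spans 90603771 to 90606045, and S100a6 starts 6836 bp after it and spans 90612882 to 90624181. S100a11 spans 93520488 to 93526287, and S100a10 starts 28792 bp further on and spans 93555080 to 93564643. The other members are spread over the genome: Anxa2 on chromosome 9 (69453620 to 69491795), Lgals1 on chromosome 15 (78926725 to 78930465), Lgals3 on chromosome 14 (47367751 to 47386160), Vim on chromosome 2 (13573927 to 13582826) and Crip1 on chromosome 12 (113146316 to 113153879). The annotated gene Gm42674 overlaps S100a4 on the same strand, and Mir3109 and the antisense gene Gm16144 overlap Anxa2. None of these 3 had a row in the table, and how the counting treated reads in such overlaps is not given in the sources used here.

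Start-site windows from RefSeq (GRCm38.p6, the mm10 build; 250 bases before to 50 after the start) were matched by symbol for 7 of the 9 members, all but S100a10 and Lgals1. The 250 bases before the start are printed for 4 members that the states below set apart: S100a4, with the steepest ratio in effector-like cells; S100a11 and Anxa2; and Crip1, which went the other way in 2 states. Capitals mark TGANTCA, the core that AP-1 and related leucine-zipper factors bind, and TATAAA. The RefSeq start sites of Crip1, Lgals3 and Vim differ from the GENCODE gene starts, and their windows lie inside the gene spans given above. The windows are chr3:90603520-90603769 for S100a4, chr3:93520246-93520495 for S100a11, chr9:69453433-69453682 for Anxa2 and chr12:113151762-113152011 for Crip1, each on the plus strand and 5′ to 3′.
S100a4: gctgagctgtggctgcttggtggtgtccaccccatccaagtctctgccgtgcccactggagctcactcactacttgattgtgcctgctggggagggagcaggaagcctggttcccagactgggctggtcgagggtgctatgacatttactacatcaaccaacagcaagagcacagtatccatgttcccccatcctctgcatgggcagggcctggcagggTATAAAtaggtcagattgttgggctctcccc
S100a11: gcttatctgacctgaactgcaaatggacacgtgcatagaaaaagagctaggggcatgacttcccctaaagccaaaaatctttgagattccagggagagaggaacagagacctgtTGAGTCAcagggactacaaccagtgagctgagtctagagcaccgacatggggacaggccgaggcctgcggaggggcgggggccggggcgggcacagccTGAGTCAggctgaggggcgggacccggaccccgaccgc
Anxa2: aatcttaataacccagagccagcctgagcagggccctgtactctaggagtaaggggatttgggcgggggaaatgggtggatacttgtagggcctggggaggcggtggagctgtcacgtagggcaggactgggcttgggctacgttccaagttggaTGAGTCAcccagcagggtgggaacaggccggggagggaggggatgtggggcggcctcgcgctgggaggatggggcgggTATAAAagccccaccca
Crip1: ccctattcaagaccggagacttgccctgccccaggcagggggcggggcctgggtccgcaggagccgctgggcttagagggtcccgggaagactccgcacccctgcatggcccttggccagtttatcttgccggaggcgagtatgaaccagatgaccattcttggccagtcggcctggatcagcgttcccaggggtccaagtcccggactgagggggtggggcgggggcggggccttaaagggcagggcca

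Each 300-base window was searched on both strands for 6 motifs. TGANTCA occurred at 2 places before the S100a11 start, as TGAGTCA at positions -136 and -38, and at 1 place before the Anxa2 start, as TGAGTCA at -95. It was not found in the windows of S100a4, S100a6, Lgals3, Vim and Crip1, and 7.81% of 32851 RefSeq windows of the same length hold it. TATAAA stood at -31 before S100a4, at -32 before Vim and at -17 before Anxa2, against 13.6% of all windows. TGACGTCA, the cyclic-AMP response element, was in none of the 7 windows and in 1.79% of all. CACCC (57.5% of all windows), CANNTG (72.3%) and GGAAGT (23.8%) are common, and the Anxa2 TGAGTCA match shared 2 bases with a CACCC match. A match is a string of letters in a window and shows no binding.

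Over the 6 sets, 10680 of 10685 cells passed the filters (at least 200 genes, under 10% mitochondrial UMIs), with a median of 2089 UMIs per cell and between 1641 and 1902 cells per set. Each set held 3.99817e+06 to 4.78659e+06 UMIs, and 63 barcode sequences occurred in more than 1 set. Cells were thinned to 1000 UMIs and placed in a state by how many of its marker genes they showed. Of 10224 Treg cells scored this way, 838 were Ccr2 effector-like (Ccr2, Cxcr6, Itgb1, Itgae, Klrg1, Il1rl1 and others), 926 Ccl5 Maf-like (Ccl5, Maf, Lag3, Pdcd1 and others), 612 TCR-stimulated-like (Il1r2, Tnfrsf9, Nr4a1, Egr2 and others), 275 interferon-response-like, 114 cycling-like and 1802 resting-like (Ccr7, Lef1, Tcf7 and the like). The other 5657 met the rule for no state. The names rest on those markers alone. Foxp3, the defining Treg gene, was at 17.4 CPM (UMIs of a gene per 1e+06 UMIs of the state's cells) in Ccr2 effector-like and 21.0 CPM in resting-like cells, and Ikzf2 at 1233 and 641 CPM. Another 92 cells carried B cell markers and 44 myeloid markers and were kept out of the states.

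Together the 9 members made up 0.457% of the UMIs of all Treg cells. Their share was 1.28% in cycling-like, 0.905% in Ccr2 effector-like, 0.485% in Ccl5 Maf-like, 0.382% in interferon-response-like, 0.319% in TCR-stimulated-like and 0.352% in resting-like cells. Cycling-like cells had the highest pooled level of S100a6, S100a10, Lgals1, Lgals3, Anxa2, Vim and Crip1, while S100a4 and S100a11 stood at about the same level in cycling-like and Ccr2 effector-like cells, with overlapping sets. At the low end the members divided. S100a10, S100a11 and Anxa2 had their lowest pooled level in resting-like cells and the other 6 in TCR-stimulated-like cells. Between these 2 states the sets of S100a11 and Crip1 did not overlap, those of Vim met at their ends, and those of the other 6 members overlapped. Most neighbours in the order of the 6 states overlapped between sets, and the clear steps were few: Lgals1, Anxa2 and Vim from cycling-like to Ccr2 effector-like cells, Lgals1 and Lgals3 from Ccr2 effector-like to Ccl5 Maf-like cells, and Crip1 from Ccr2 effector-like to resting-like cells.

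**Figure D1:**
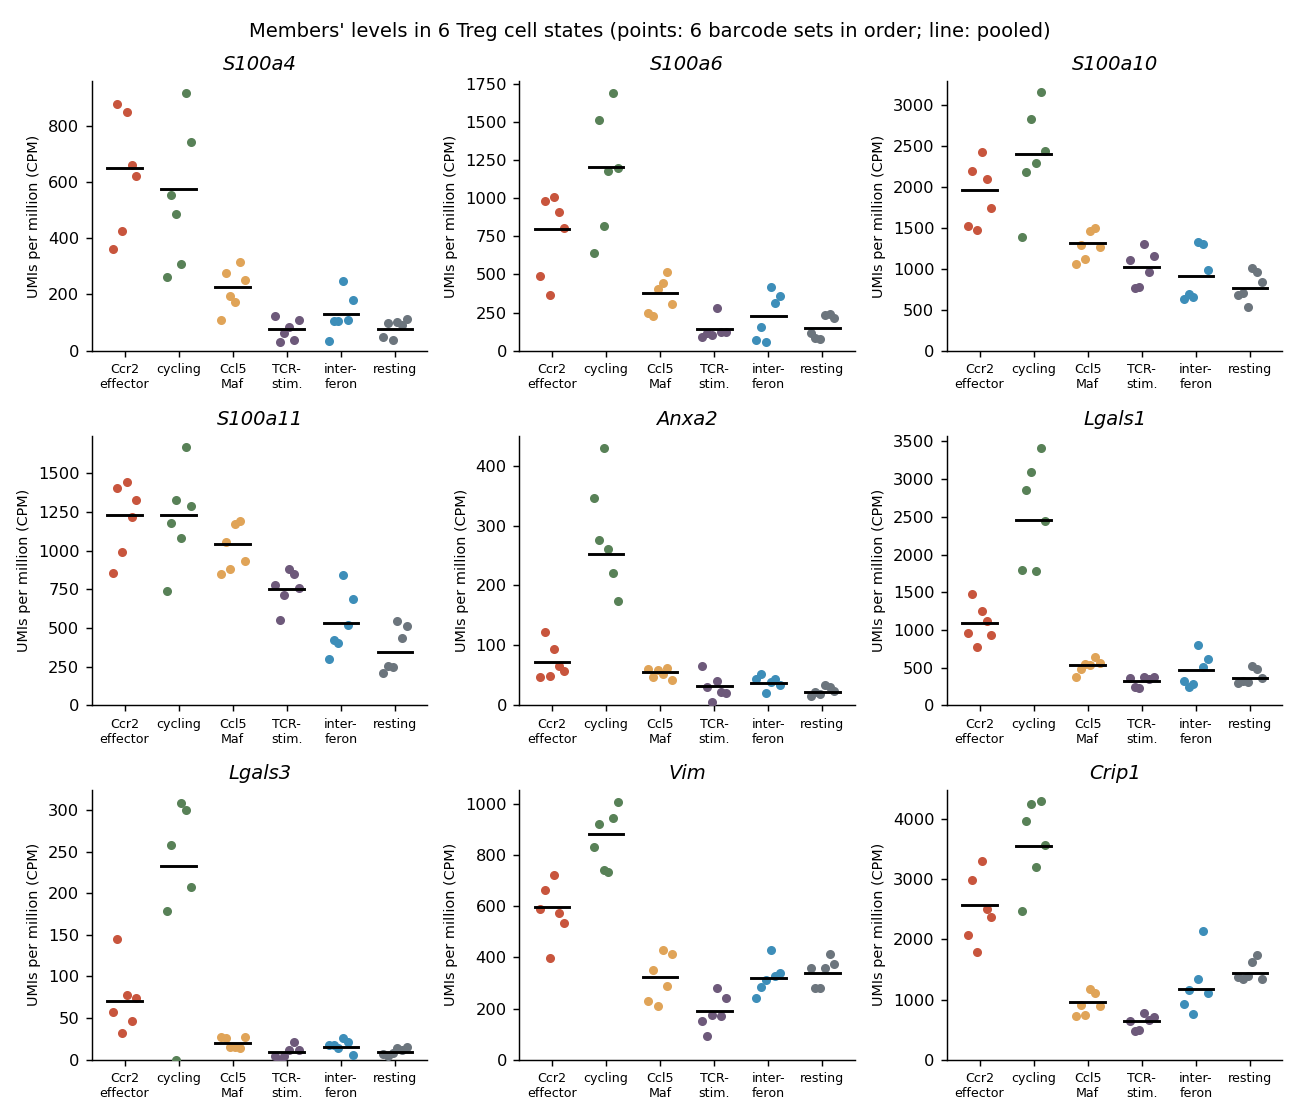
Level of each of the 9 members (CPM, vertical axes starting at 0) in 6 Treg cell states, with resting-like cells on the right; points are the 6 barcode sets in order and the black line is the pooled level. S100a4 has 649 CPM in Ccr2 effector-like and 78.5 CPM in resting-like cells, and Crip1 is lower in TCR-stimulated-like (636 CPM) than in resting-like cells (1447 CPM).

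In Ccr2 effector-like cells every member was higher than in resting-like cells, in each of the 6 sets, and S100a4, Lgals3 and S100a6 led. A gene was called when its pooled CPM lay 1.5-fold or more apart and all 6 sets pointed the same way. By this rule 9 of 9 members were called higher and 0 lower, against 6.31% of 5564 measured genes called higher and 1.01% called lower. The members and lists were chosen with earlier results of these data known. The shares set beside them, here and below, are therefore descriptions and not tests. The median gene was itself higher by 0.19 on the log2 scale, and relative to it the members still stood 0.63 to 2.86 higher.

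S100a4, a calcium sensor that binds non-muscle myosin and is linked to cell motility, had 360 CPM in the lowest, 640 CPM in the median and 878 CPM in the highest set of Ccr2 effector-like cells, against 39.4, 94.8 and 113 CPM in resting-like cells. The sets of the 2 states did not overlap, and the pooled levels of 649 and 78.5 CPM gave a log2 ratio of 3.05 (95% interval 2.88 to 3.22), which placed it at number 8 of all measured genes. In cells thinned to 1000 UMIs, 29.8% of Ccr2 effector-like cells (exact 95% interval 26.8 to 33.1) and 4.72% of resting-like cells (3.78 to 5.80) showed an S100a4 UMI, and 1.09% of B cells did, at median depths of 1945.5, 2502 and 1960 UMIs; without thinning the shares were 40.2%, 8.32% and 2.17%. S100a4 was thus seen in a minority of the state's cells at this depth.

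S100a6, a calcium sensor that binds annexins and S100 partners, ranged from 365 to 1006 CPM (median 855) over the sets of Ccr2 effector-like cells and from 75.4 to 242 CPM (median 165) over those of resting-like cells, a log2 ratio of 2.43 (2.29 to 2.56). S100a11, which binds annexin I, ranged from 855 to 1440 CPM (median 1272) against 207 to 545 CPM (median 342), a log2 ratio of 1.85 (1.76 to 1.94). S100a10 ranged from 1475 to 2425 CPM (median 1920) against 535 to 1015 CPM (median 778), a log2 ratio of 1.36 (1.29 to 1.43). For none of these did the sets of the 2 states overlap. The sets' own log2 ratios spread more widely than the intervals. They ran from 1.89 to 3.51 for S100a6, from 1.37 to 2.47 for S100a11 and from 1.05 to 1.63 for S100a10. Anxa2, the partner of S100a10, had 47.1 to 122 CPM (median 61.2) against 15.7 to 33.2 CPM (median 22.9), and its log2 ratio of 1.66 (1.28 to 2.04) rested on 133 and 107 UMIs. Its sets did not overlap either.

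Lgals1, a galectin known to be secreted by Treg cells and to act on effector T cells, ranged from 768 to 1479 CPM (median 1036) in Ccr2 effector-like cells against 299 to 515 CPM (median 345) in resting-like cells, a log2 ratio of 1.57 (1.48 to 1.67). Lgals3, whose carbohydrate-binding domain is joined to a self-associating tail, ranged from 32.7 to 146 CPM (median 65.6) against 4.28 to 15.5 CPM (median 9.71). Its log2 ratio of 2.91 had a wide interval, 2.40 to 3.43, with 130 and 44 UMIs counted. Neither galectin's sets overlapped between the states. The sets' own log2 ratios ran from 1.20 to 2.19 for Lgals1 and from 1.95 to 4.94 for Lgals3. Set 2 held the highest level of Lgals1 and of Lgals3 in Ccr2 effector-like cells.

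Crip1 and Vim differed least. Crip1 ranged from 1786 to 3301 CPM (median 2439) in Ccr2 effector-like cells and from 1335 to 1743 CPM (median 1379) in resting-like cells, a log2 ratio of 0.83 (0.78 to 0.89). Vim ranged from 397 to 721 CPM (median 581) against 279 to 412 CPM (median 358), a log2 ratio of 0.82 (0.71 to 0.93), and here the sets of the 2 states overlapped. Within each set both were nonetheless higher in the effector-like cells.

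Markers of other cell types were higher in Ccr2 effector-like cells as well. The 8 myeloid markers summed to 189 CPM in Ccr2 effector-like cells (sets 125 to 230; 5 of 8 with a UMI, Csf1r, C1qc and Spi1 at 0) and to 116 CPM in resting-like cells (sets 96.3 to 134; 7 of 8 with a UMI), most of it Cst3, at 176 and 103 CPM. With every cell that carried a UMI of these markers left out, 9 of 9 members were still called higher. The 6 B cell markers summed to 66.9 CPM (sets 51.2 to 84.6; 5 of 6 with a UMI) and 42.5 CPM (sets 30.4 to 56.0; 6 of 6), and their part in the ratios was not tested. When a state needed 3 marker genes in place of 2, the log2 ratio of S100a4 was 4.08 and that of Lgals3 was 4.03. Another random thinning (seed 4) ended the call of Vim, at 0.58, and put Anxa2 at 0.97, and thinning to 500 UMIs ended the call of Anxa2, at 1.63; seed 5 put Lgals3 at 3.59.

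**Figure D2:**
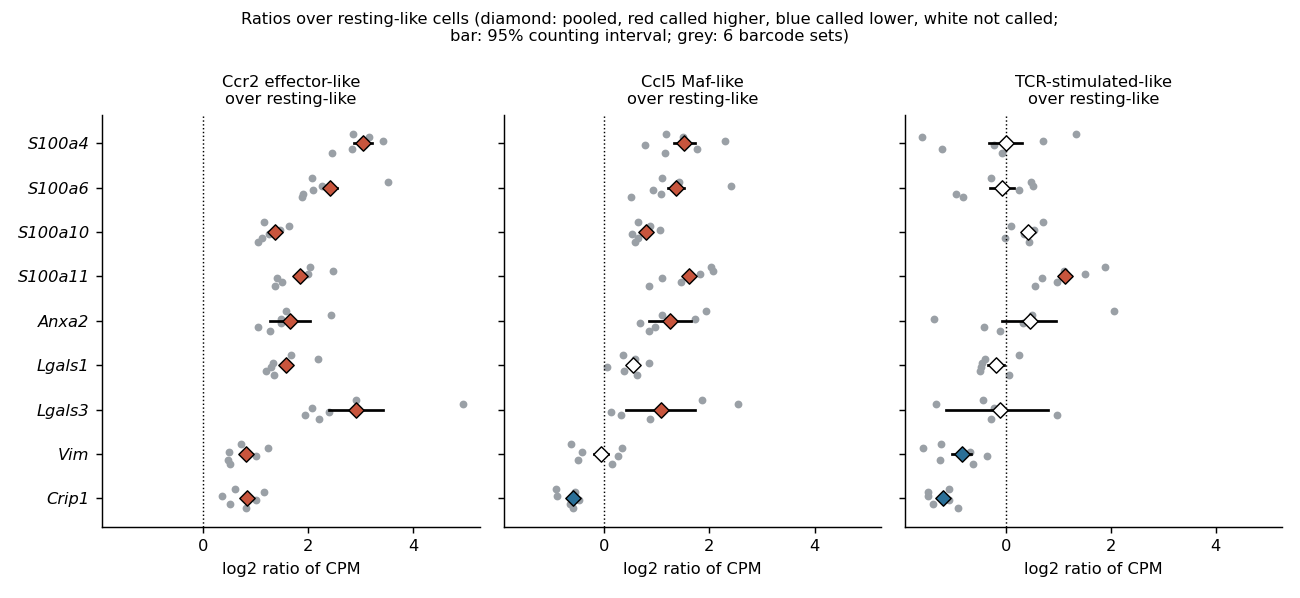
Log2 ratio of CPM over resting-like cells for each member in Ccr2 effector-like, Ccl5 Maf-like and TCR-stimulated-like cells, on a shared horizontal axis; diamonds are pooled ratios (red called higher, blue called lower, white not called), bars 95% counting intervals and grey points the 6 barcode sets. All 9 members lie right of 0 in the first panel, while Crip1 lies left of it in the other 2, at -0.59 and -1.19.

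TCR-stimulated-like cells, set by genes that follow recent antigen-receptor signalling, showed another pattern: S100a11 was higher than in resting-like cells, Crip1 and Vim were lower, and the others were not called. This made 1 of 9 members called higher and 2 of 9 lower, against 8.57% and 2.74% of 5369 measured genes. The median gene was 0.16 higher on the log2 scale.

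S100a11 ranged from 548 to 884 CPM (median 766) in TCR-stimulated-like cells against 207 to 545 CPM (median 342) in resting-like cells, with a log2 ratio of 1.13 (1.02 to 1.25). Crip1 ranged from 479 to 774 CPM (median 659) against 1335 to 1743 CPM (median 1379), a log2 ratio of -1.19 (-1.29 to -1.09), and its sets lay far apart. Vim ranged from 92.0 to 280 CPM (median 173) against 279 to 412 CPM (median 358), a log2 ratio of -0.84 (-1.03 to -0.65), with the 2 ranges overlapping at their ends. The Vim call was lost under another random thinning (seed 5), at -0.55.

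S100a4 stood at 78.5 CPM in both states, with an interval of the log2 ratio from -0.31 to 0.30 and 2 of 6 sets higher. S100a6 had 141 against 148 CPM (interval -0.30 to 0.15) and Lgals1 325 against 368 CPM (-0.33 to -0.04). S100a10 had 1027 against 763 CPM, a log2 ratio of 0.43 with 5 of 6 sets higher. Lgals3, with 13 and 44 UMIs, and Anxa2, with 47 and 107, were too sparse to place, with intervals of -1.13 to 0.80 and -0.07 to 0.97. With seed 2 Anxa2 was called higher, at 0.89, and with 3 marker genes it was at -0.24. The signs of the S100a4, S100a6, Lgals1 and Lgals3 ratios changed between alternative settings too. Myeloid markers summed to 156 CPM in TCR-stimulated-like cells (sets 118 to 211; 6 of 8 with a UMI, Spi1 and Itgax at 0) and to 116 CPM in resting-like cells (sets 96.3 to 134), and without cells carrying one 1 member was called higher and 2 lower.

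Ccl5 Maf-like cells, whose markers include the inhibitory receptors Lag3 and Pdcd1 and the transcription factor Maf, had higher levels of the 4 S100 genes and a lower level of Crip1. Here 6 of 9 members were called higher and 1 lower than in resting-like cells, against 8.14% and 1.77% of 5640 measured genes, and the median gene was 0.19 higher. S100a11 led, with 850 to 1193 CPM (median 994) against 207 to 545 CPM (median 342) and a log2 ratio of 1.61 (1.51 to 1.70). S100a4 had 226 against 78.5 CPM (1.52, interval 1.32 to 1.73), S100a6 381 against 148 CPM (1.36, 1.21 to 1.51) and S100a10 1315 against 763 CPM (0.79, 0.71 to 0.86). Anxa2 had 54.7 against 23.0 CPM (1.25, 0.85 to 1.65), and Lgals3, from 39 and 44 UMIs, 19.95 against 9.44 CPM (1.08, 0.42 to 1.74).

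Lgals1 was higher in all 6 sets of Ccl5 Maf-like cells but below the fold, at 535 against 368 CPM (log2 0.54, interval 0.43 to 0.65). Vim had 324 against 337 CPM (-0.06, interval -0.19 to 0.08). Crip1 ranged from 723 to 1171 CPM (median 898) against 1335 to 1743 CPM (median 1379), a log2 ratio of -0.59 (-0.67 to -0.52). That call is a narrow one: without set 1 the ratio was -0.55 and without set 3 it was -0.56, both short of 1.5-fold. Without set 4 Lgals1 passed, at 0.63. Over 26 alternative settings S100a11 was called higher in 26, S100a6 and S100a10 in 25, S100a4 in 22, Anxa2 in 21 and Lgals3 in 20, and Crip1 was called lower in 19. Myeloid markers summed to 183 CPM in Ccl5 Maf-like cells (sets 146 to 211; 6 of 8 with a UMI, Csf1r and Itgax at 0) and to 116 CPM in resting-like cells (sets 96.3 to 134), so these sums did not overlap, and Cst3 made up 164 and 103 CPM of them. Without cells carrying a myeloid marker 6 members were called higher and 0 lower. The B cell markers summed to 59.9 CPM (sets 43.0 to 83.7; 6 of 6 with a UMI) and 42.5 CPM (sets 30.4 to 56.0), and their part was not tested. Without thinning S100a4 was at 0.73 and Anxa2 at 0.78, both uncalled, while Lgals3 was at 1.69 with 3 marker genes and 1.75 with seed 5.

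Set against each other, the non-resting states separated the members further. Ccr2 effector-like over TCR-stimulated-like cells had 8 of 9 members called higher and 0 lower, against 4.36% and 4.08% of 3874 genes. S100a4 (649 against 78.5 CPM, log2 3.05, interval 2.77 to 3.34), Lgals3 (70.7 against 8.72 CPM, 3.02, 2.20 to 3.97) and S100a6 (797 against 141 CPM, 2.50, 2.29 to 2.72) led, and Crip1 followed with 2581 against 636 CPM (2.02, 1.92 to 2.12). S100a10 had 1961 against 1027 CPM (0.93, 0.85 to 1.02). Vim had 595 against 188 CPM (1.66, 1.47 to 1.85) and Lgals1 1095 against 325 CPM (1.75, 1.61 to 1.90). S100a11 had the smallest called ratio, 1230 against 750 CPM (0.71, 0.61 to 0.82). Anxa2 was not called, at 1.20 with 5 of 6 sets higher, and was called without set 1, at 1.67. With 3 marker genes per state the ratios of S100a4, S100a6, Lgals1 and Vim were 4.07, 3.18, 2.34 and 2.32, and with levels from thinned cells that of Lgals3 was 4.57.

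Ccr2 effector-like over Ccl5 Maf-like cells had 5 of 9 members called higher and 0 lower, against 1.32% and 1.34% of 4253 genes. The 5 were Lgals3 (70.7 against 19.95 CPM, log2 1.83, interval 1.30 to 2.38), S100a4 (649 against 226 CPM, 1.52, 1.37 to 1.69), Crip1 (2581 against 958 CPM, 1.43, 1.35 to 1.51), Lgals1 (1095 against 535 CPM, 1.03, 0.92 to 1.14) and Vim (595 against 324 CPM, 0.88, 0.74 to 1.02). S100a11 was nearly level, at 1230 against 1041 CPM (0.24, interval 0.15 to 0.33). S100a6 (1.07) was higher in 5 of 6 sets and S100a10 (0.58) was just under the fold. Both depended on the random thinning: S100a6 was called with each of seeds 2 to 6 and S100a10 with seeds 2, 3, 5 and 6, which made 6 members called with seed 4 and 7 with the others. Over the 26 alternative settings S100a6 was called in 12 and S100a10 in 11. Among these, S100a6 was called without set 3, at 1.16, and S100a10 without set 1, 5 or 6, at 0.59, 0.62 and 0.60. Anxa2 (0.40) was at -0.14 with 3 marker genes. S100a4 was at 2.20 with 3 marker genes, at 2.14 with seed 5 and at 2.23 without thinning. When Ccr2 was dropped from the effector markers, Lgals1 (0.92) and Lgals3 (1.63) lost their calls and 3 members kept theirs. The 2 last comparisons share the effector-like cells, and all comparisons over resting-like cells share those cells.

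Interferon-response-like cells, set by genes such as Ifit1 and Isg15, had few members that were called, and which ones changed with the settings. S100a11 (532 against 342 CPM, log2 0.64, interval 0.47 to 0.81) and Anxa2 (36.4 against 23.0 CPM, 0.66, interval -0.04 to 1.31) were called higher, 2 of 9, and 0 were called lower, against 3.51% and 0.727% of 4811 genes. The Anxa2 interval includes 0. S100a4 (130 against 78.5 CPM, 0.73, interval 0.37 to 1.07, 5 of 6 sets higher), Lgals3 (0.68, 5 of 6 sets) and S100a6 (0.62, 4 of 6 sets) passed the fold but not in every set. S100a4 was called with seed 6, at 1.69, and without other-lineage and the deepest cells, at 0.93. Lgals3 was called with seeds 3 and 5 and without thinning, at up to 1.42, S100a6 without thinning, at 1.18, and Lgals1 with seed 6, at 0.59. Anxa2 was called with none of seeds 2 to 6. Without set 2 S100a11 (0.57) was not called, without set 1 Anxa2 (0.49) was not but S100a4 (0.81) was, and without set 6 Lgals3 (1.14) was called as well. Outside the 9, Lgals9 and Lgals3bp, both known as interferon-inducible genes, were called higher there, at 162 against 87.3 CPM and at 126 against 44.0 CPM, while Lgals1 (467 against 368 CPM) and Lgals3 (15.2 against 9.44 CPM) were not. Of 58 measured relatives and partners of the 9, these were the 2 called higher (3.45%), no more than the 3.51% of all genes, and 1 was called lower.

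Cycling-like cells, set by mitotic and DNA-synthesis genes, had 9 of 9 members called higher than resting-like cells and 0 lower, against 14% and 3.68% of 4919 genes, with the median gene 0.15 higher. The order differed from that of effector-like cells. Lgals3 had 232 against 9.44 CPM (log2 4.62, interval 4.13 to 5.14) and Anxa2 252 against 23.0 CPM (3.46, 3.10 to 3.82). Lgals1 ranged from 1779 to 3420 CPM (median 2652) against 299 to 515 CPM (median 345), a log2 ratio of 2.74 (2.64 to 2.83). S100a6 (3.02), S100a4 (2.87), S100a11 (1.85), S100a10 (1.65), Vim (1.39) and Crip1 (1.29) were also higher in each set. These 114 cells had a median of 5357.5 UMIs, against 2502 UMIs in resting-like cells, and 8 to 33 cells per set. Set 3, with 8 cells, had no Lgals3 UMI, against 7.88 CPM in its resting-like cells. Its Lgals3 log2 ratio of 0.21 was above 0 only through the 0.5 UMIs added within a set. The Lgals3 call in cycling-like cells therefore rests on that addition.

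In cycling-like cells the myeloid markers summed to 168 CPM (sets 55.3 to 221; 2 of 8 with a UMI) against 116 CPM in resting-like cells. Cells with myeloid markers, which were kept out of the states, had high levels of several members, such as Lgals3 at 677 CPM, S100a6 at 955 CPM, Anxa2 at 318 CPM and Crip1 at 3129 CPM. With cells carrying any UMI of a myeloid marker left out, 4 of 9 members were called higher in cycling-like cells: S100a10, S100a11, Lgals1 and Lgals3, the last at 3.05. S100a6 was then at 2.09, Anxa2 at 2.33, S100a4 at 3.09, Vim at 1.04 and Crip1 at 0.95, none of them in the same direction in 6 of 6 sets. In the authors' normalised cells alone S100a4 (2.90), S100a6 (2.49) and Crip1 (1.29) were not called, and Lgals3 lost its call with seed 4 (3.95), without thinning (3.83, Anxa2 then at 2.70) and with totals that left out ribosomal protein and mitochondrial genes (4.37). Without cells carrying Cd79a, Lyz2, Cd8a or Hbb-bs and without the deepest 2% of cells, Lgals1 (2.26), Vim (1.13) and Crip1 (1.18) were not called, S100a6 (2.43) and Anxa2 (2.68) were lower and S100a4 (3.47) was higher. With 3 marker genes Lgals3 was at 5.40, and as the mean of the sets' own ratios at 3.87.

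A view without borders between states ordered all 10224 Treg cells by how many of the 10 resting markers they showed, 0 (4621 cells), 1 (3426), 2 (1445), 3 (509) or at least 4 (223). The pooled levels of S100a4, S100a10, S100a11, Lgals1 and Lgals3 stepped down along the whole of this order. S100a11 had 794, 648, 480, 371 and 164 CPM, S100a10 1201, 1106, 941, 849 and 596 CPM, and S100a4 202, 183, 151, 140 and 32.9 CPM. Lgals1 had 581, 546, 476, 453 and 265 CPM, and Lgals3 31.1, 23.5, 16.3, 15.1 and 6.57 CPM, the last from 4 UMIs. S100a6 had 333, 287, 223, 239 and 122 CPM. For S100a4, S100a6, S100a10, S100a11 and Lgals1 the widest step of the pooled level was the last, which for S100a4 rested on 20 UMIs. Within single sets, S100a11 alone stepped down along the whole order in every set. S100a4 did so in set 4, with 255, 215, 202, 105 and 95.5 CPM, but had 248, 208, 255, 283 and 12.8 CPM in set 6.

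Crip1 had 1217, 1447, 1484, 1803 and 1356 CPM, highest at 3 markers, and Vim 369, 363, 381, 338 and 289 CPM. Comparing cells with at least 4 markers with cells with none, 5 of 9 members were called lower (S100a4 at -2.62, S100a11 at -2.27, S100a6 at -1.45, Lgals1 at -1.14 and S100a10 at -1.01) and 0 higher, against 4.99% and 1.65% of 7330 genes. The median gene was at -0.21. Anxa2 (-1.53) and Lgals3 (-2.24, from 4 and 334 UMIs) were lower in 5 of 6 sets, and were called without set 6 and without set 3, at -1.88 and -2.53. The median depth of the cells was 1995, 2122, 2342, 2512 and 2672 UMIs along the order. With markers counted in unthinned cells it was 1711 UMIs at 0 markers and 2988 UMIs at 4 or more, and then S100a11 (-1.42) alone was called lower, Crip1 (0.78) was called higher, and Lgals1, Anxa2, Lgals3 and Vim were at 0.23, 0.44, 0.75 and 0.34. The part of depth in these values was not tested. Between random thinnings S100a4 lay between -5.12 (seed 2) and -1.40 (seed 5, not called), seed 5 (-0.54) and thinning to 500 UMIs (-0.97) ended the call of Lgals1, and levels from thinned cells or from cells without myeloid markers put S100a6 at -0.65 (not called) and -0.84.

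**Figure D3:**
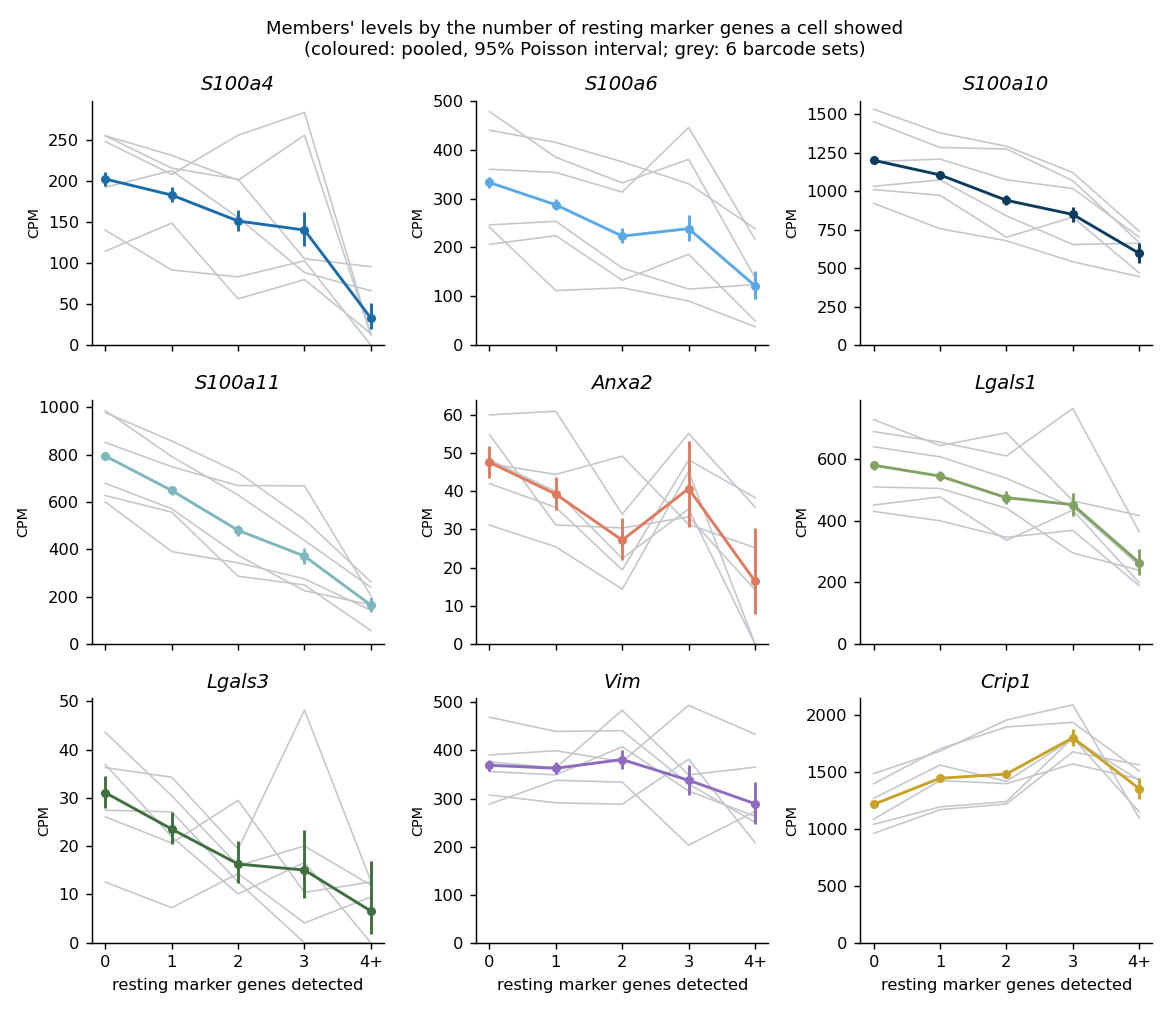
Level of each member (CPM, vertical axes from 0) by the number of resting marker genes detected in a cell, from 0 to at least 4; coloured lines are pooled levels with 95% Poisson intervals and grey lines the 6 barcode sets. S100a11 goes down at each step, with 794 CPM at 0 markers and 164 CPM at 4 or more, while Crip1 is highest at 3 markers, 1803 CPM.

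Single markers were then taken one at a time, comparing cells with a UMI of the marker in the thinned cell with cells without one. Beside each count stands the share of 8987 genes with at least 100 UMIs that were likewise higher, or lower, in 6 of 6 sets. Cells with a UMI of Ccr2, a chemokine receptor (258 cells), had all 9 members higher in 6 of 6 sets, against 9.98% of genes, with log2 ratios between 1.18 (Vim) and 2.98 (Lgals3). S100a4 had 1153 CPM in cells with Ccr2 and 155 CPM in cells without. Cells with Itgb1, the integrin β1 chain (1691 cells), likewise had all 9 higher in 6 of 6 sets, at 0.66 to 1.82, against 8.92% of genes. Cells with Il1rl1, the IL-33 receptor chain (173 cells), had 8 of 9 higher in 6 sets, against 13.9% of genes, S100a4 at 1.94 in the lead, and Anxa2 at -0.75 with 2 of 6 sets higher. These 3 genes are among the 10 effector markers. Among the others of that panel, Cxcr3 went with 6 of 9 members in 6 sets (5.46% of genes, Crip1 at -0.06), Itgae with 4 (7.23%) and Klrg1 with 2 (7.29%). Among genes of at least 50 CPM the shares were 12.4% for Ccr2, 15.5% for Itgb1, 7.92% for Il1rl1, 8.1% for Cxcr3, 6.64% for Itgae and 6.6% for Klrg1.

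Genes outside the state panels were read the same way. With Icos 4 of 9 members were higher in 6 of 6 sets (7.04% of genes), with Nrp1 3 (6.89%), with Cd44 2 (4.37%) and with Ikzf2 2 (12.7%), and 0 were lower. With Il2ra 8 of 9 were lower (2.17% of genes), with Foxp3 4 (0.69%) and with Bach2 2 (1.13%), and 0 were higher. Among genes of at least 50 CPM the shares for Icos, Nrp1, Cd44 and Ikzf2 were 11.1%, 10.2%, 3.17% and 22.3%, and the 2 of 9 members with Ikzf2 are no more than that last share. The shares of such genes that were lower with Il2ra, Foxp3 and Bach2 were 4.33%, 1.37% and 2.48%. Cells with Il2ra, the high-affinity IL-2 receptor chain (896 cells), had 8 of 9 members lower in 6 of 6 sets, with S100a10 at -0.26, Crip1 at -0.28, Lgals1 at -0.54 and S100a4 at -0.81, and Vim at 0.04. Cells with Foxp3 (230 cells) had S100a6, S100a10, Lgals1 and Lgals3 lower in 6 sets. Cells with Bach2 (266 cells) had S100a6 (-1.10) and Lgals1 (-0.55) lower in 6 sets and S100a4 (-1.05) lower in 5. The deposited 3′ counts do not show whether a Bach2 UMI came from an intact or a recombined allele. Cells with Icos (1064 cells) had the 4 S100 genes higher in 6 sets, at 0.40 to 0.64, and no other member. Tnfrsf9 and Il1r2, both TCR-stimulated markers, each went with 3 lower members (3.61% and 2.89% of genes), among them Crip1 (-0.79 and -0.61) and Vim (-0.52 and -0.50), and Ccr7, a resting marker, with 7 lower members (5.9% of genes), S100a4 at -1.47 first among them. Among genes of at least 50 CPM the shares lower with Tnfrsf9, Il1r2 and Ccr7 were 9.25%, 7.46% and 11.8%.

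**Figure D4:**
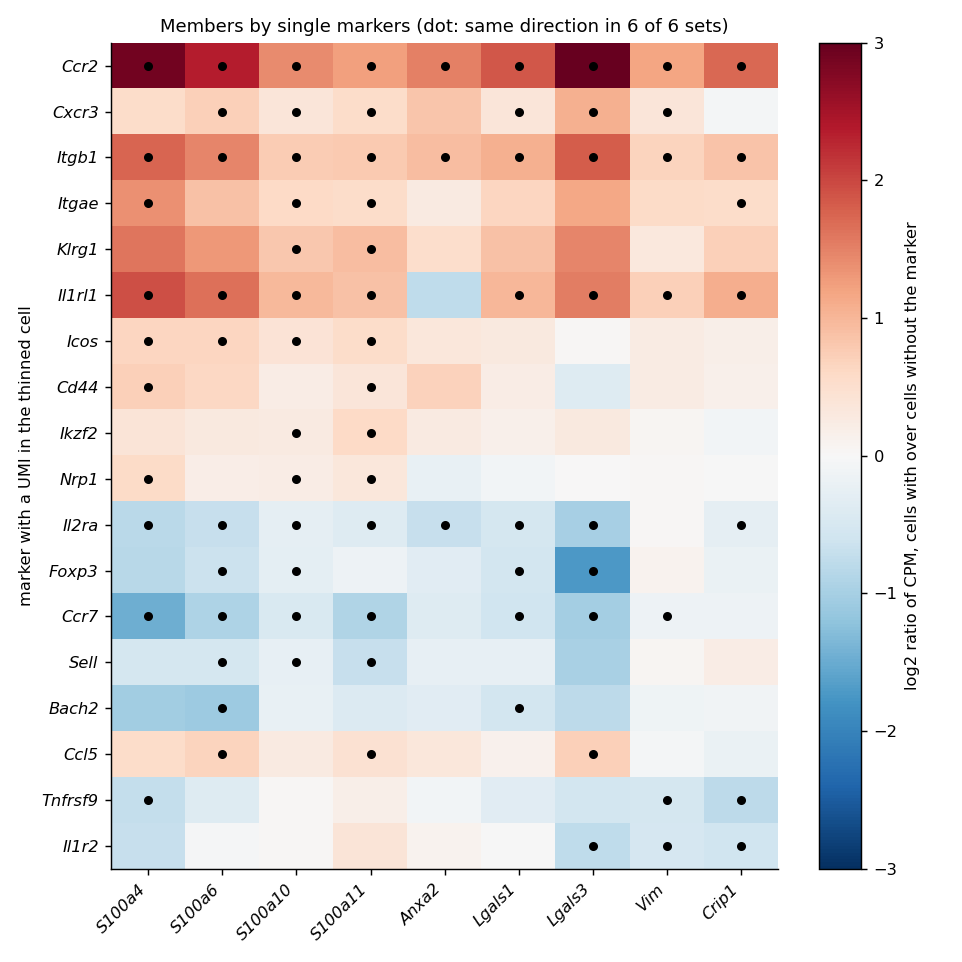
Heat map of log2 ratios of CPM for the 9 members (columns) in cells with over cells without a UMI of each of 18 markers (rows); red is higher and blue lower in cells with the marker, and a dot marks the same direction in 6 of 6 sets. Ccr2 and Itgb1 have dots for all 9 members, and Il2ra has 8 dots, all on the lower side.

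The other members were also higher in cells with more S100a4 UMIs. In thinned cells, S100a4 UMIs numbered 0 in 9207 Treg cells, 1 in 618, 2 in 200, 3 in 104 and at least 4 in 95, at median depths of 2144, 1958.5, 2087, 2056 and 2268 UMIs. Along these groups Crip1 had 1127, 2650, 4284, 5109 and 5718 CPM, Lgals1 401, 1285, 2105, 2498 and 3293 CPM, and S100a6 187, 872, 1621, 1756 and 1965 CPM. Vim had 318, 635, 834, 1145 and 1262 CPM, and Lgals3 14.8, 64.1, 148, 199.96 and 259.8 CPM. The pooled levels of all 8 other members increased at each of the 4 steps, Crip1 and Vim included, although those 2 differed least between Ccr2 effector-like and resting-like cells. The share of all genes that increased likewise is not given here, so the count of 8 has no background. Treg cells carrying a UMI of a single myeloid marker were not left out of these groups.

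Of the 95 cells with the most S100a4, 38 (40% of them) were Ccr2 effector-like and 33 (34.7%) belonged to no state. Within Ccr2 effector-like cells alone S100a10, S100a11 and Lgals1 increased at each step as well. There Crip1 had 1640 CPM in the 588 cells without an S100a4 UMI and 6643 CPM in the 38 cells with at least 4, and Lgals1 667 and 3571 CPM. Crip1, Vim, Lgals3 and Anxa2 were highest at 3 S100a4 UMIs, in 27 cells, and S100a6 reached 2167 CPM at 2 and at 3 UMIs and was at 1780 CPM in the highest group. At least 7 of the 9 members were detected together in 20.2% of cycling-like, 9.55% of Ccr2 effector-like, 1.30% of Ccl5 Maf-like, 0.163% of TCR-stimulated-like and 0.388% of resting-like cells.

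**Figure D5:**
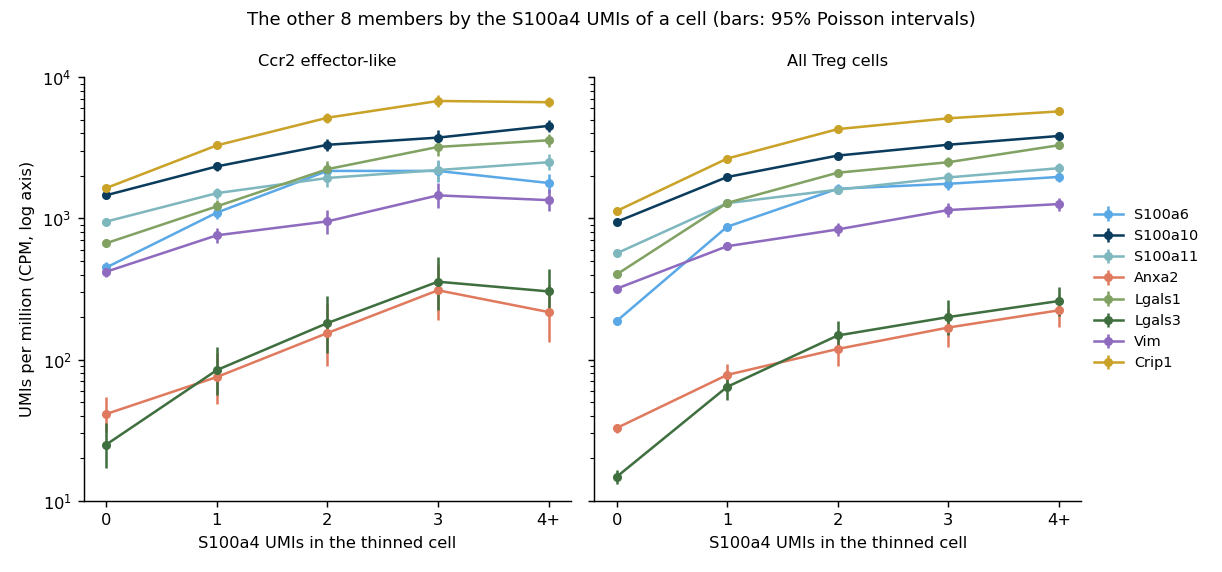
Level of the other 8 members (CPM, log axis) by the number of S100a4 UMIs in the thinned cell, within Ccr2 effector-like cells and in all Treg cells; bars are 95% Poisson intervals. In all Treg cells each line goes up at every step, and Crip1 reaches 5718 CPM and Lgals1 3293 CPM in the highest group.

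Pearson correlations over single thinned cells were modest. Counts per cell are sparse, and cells of a set share a library. In all Treg cells the median over sets lay between 0.08 (S100a4 with Anxa2) and 0.37 (Lgals1 with Crip1) for the 36 pairs. In Ccr2 effector-like cells S100a6 with Crip1 (0.42), Lgals1 with Crip1 (0.41) and S100a4 with Lgals1 (0.40) were highest.

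Over 33 points, each a state in 1 set with at least 20 cells, the log2 levels of the members went together to different degrees. Cycling-like cells gave points from sets 4, 5 and 6 only, as sets 1, 2 and 3 held 15, 11 and 8 of them. State and set cannot be told apart for the cycling-like points. Vim and Crip1 had r = 0.91, S100a6 and S100a10 0.93 and Lgals1 and Lgals3 0.91, while S100a11 had 0.46 with Vim and 0.35 with Crip1. These points share libraries and states, so the values are descriptions without a test. Among 2304 other genes of at least 50 CPM, the closest to S100a4 were Emb (0.86), Gmfg (0.86) and Serinc3 (0.80). Closest to S100a6 were Sh3bgrl3 (0.87), S100a13 (0.86) and Cdc42 (0.86), and to S100a10 Capg (0.88), Cdc42 (0.88) and Actg1 (0.87). S100a11 went with Pglyrp1 (0.90), Capg (0.88) and Serinc3 (0.88). Tagln2, an actin-binding protein of the calponin family, was the gene closest to Lgals1 (0.91), Lgals3 (0.90) and Anxa2 (0.87), next to Cdc42 (0.90) and Sh3bgrl3 (0.89) for Lgals1, Hmgb2 (0.85) and Clic1 (0.83) for Lgals3, and Clic1 (0.81) for Anxa2. Vim went with Tmsb4x (0.90), Arhgdib (0.89) and Tagln2 (0.86), and Crip1 with Tmsb4x (0.92), Tagln2 (0.90) and Itgb7 (0.89).

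Of 59 measured relatives and partners of the 9, listed by family and by known biochemistry, 8 (13.6%) were called higher in Ccr2 effector-like over resting-like cells and 1 lower, against 6.31% and 1.01% of all genes there. By family, 0 of 1 measured other S100 gene (S100a13, 360 against 248 CPM), 0 of 3 other galectins and 1 of 4 other annexins were called higher, the last being Anxa5 (114 against 65.9 CPM, log2 0.79). Of 10 measured LIM-domain relatives of Crip1, Zyx alone was called (69.7 against 36.9 CPM, 0.92), and the 1 measured lamin gene, Lmnb1, was not. Of 30 actin and myosin genes, Capg (606 against 322 CPM, 0.91), Tagln2 (317 against 198 CPM, 0.68) and Lsp1 (736 against 481 CPM, 0.61) were called higher and Actn1 (24.5 against 86.9 CPM, -1.83), which encodes α-actinin 1, lower. The list's median log2 ratio was 0.24, near the 0.19 of all genes.

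Among 11 measured partners and ligands, 3 were called higher in Ccr2 effector-like cells: Ahnak, the giant scaffold bound by the S100a10 and Anxa2 complex (127 against 46.5 CPM, log2 1.45), Cd44 (68.6 against 33.0 CPM, 1.05) and Spn, the sialomucin CD43, a ligand of Lgals1 (159 against 99.95 CPM, 0.67). In TCR-stimulated-like over resting-like cells the same list had 3 called higher (Cd44 at 1.05, Slc3a2 at 0.88 and Ctla4 at 0.60) and 2 lower, against 8.57% and 2.74% of all genes: the Lgals1 ligand Cd7 (12.7 against 38.6 CPM, -1.60) and Cd47 (190.5 against 319 CPM, -0.74). In that comparison Actn1 (-1.18) and the LIM gene Pdlim1 (-1.33) were called lower as well, beside Crip1 and Vim. Of all 59 measured relatives and partners, 3 (5.08%) were called higher there, a smaller share than the 8.57% of all genes. Another 4 (6.78%) were called lower, against 2.74%. Tmsb4x, the gene closest to Crip1 and Vim, was higher in Ccr2 effector-like than in TCR-stimulated-like cells by 0.64 (interval 0.61 to 0.67) and was called there.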

How the data were processed

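Single Treg cells of 6 samples, 3 cKO and 3 WT, were analysed from the tables the authors deposited. The main table holds the authors' raw UMI counts per gene and cell, not normalised, from 10x Chromium 3′ v2 libraries sequenced on an Illumina HiSeq per the labels' protocols. The second deposited table holds the authors' natural log values, ln(1 + 10000 × count / cell total), for 10464 of the 10685 cells, with a largest difference from a recomputation of 6.21725e-15. FastQC, cutadapt, HISAT2, Cell Ranger and Seurat and the build mm10 are named by the submitters' processing notes, without versions or order. No name among the 10685 cell columns matched 1 sample, so the planned cKO against WT test was not run.

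The members and all lists were chosen with earlier results of these data known. Cells had at least 200 genes and under 10% mitochondrial UMIs. Of these, 315 under 1000 UMIs were left out, and each other cell was thinned to 1000 UMIs (seed 1). A state needed at least 2 detected markers and more than any other of the 4 main panels of 10 markers. Cells of other types, then cycling-like and interferon-response-like cells, were set apart first. Levels are unthinned UMIs summed over a state's cells per 1e+06 UMIs (CPM) with exact Poisson intervals; a 3′ UMI counts a transcript end, so CPM is not divided by gene length. Ratios have exact conditional binomial 95% intervals, and ratios within 1 set had 0.5 UMIs added. Background shares cover genes with at least 100 UMIs over both states. For shares of cells the interval is the exact Clopper-Pearson one. Likeness used log2(CPM + 10). Doublets were not called; an alternative left out cells with markers of another lineage and the deepest 2%. The named genes were the members, the 3 genes most like each, and called genes of the related lists; 1 gene under this rule is not reported here. Python 3.11.15, numpy 2.4.6, scipy 1.17.1, pandas 2.3.3 and matplotlib 3.10.9 were used, and the scripts were tested on simulated counts. Intervals cover counting error only, and in droplet data free RNA gives some UMIs in every cell.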

Additional observations from a re-analysis of the deposited data

Results flagged for a closer look

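The ratios of the 6 barcode sets were screened for a single set far from the others, over 72 groups of 6 ratios (9 members in 8 comparisons). A set stood apart in 4 of them, where chance alone flags about 1 in 20 groups, and the cause was not tested in any.

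Set 2 was the one apart in 3 of the 4. In Ccr2 effector-like over resting-like cells its log2 ratio for S100a6 was 3.51, against 2.27 for the next highest set and 1.89 for the lowest. For Lgals3 in the same comparison it was 4.94, against 2.91 and 1.95. In Ccr2 effector-like over TCR-stimulated-like cells its ratio for Lgals1 was 2.58, against 1.77 and 1.29. Both S100a6 and Lgals3 had low levels in the resting-like cells of that set, 85.6 and 4.28 CPM, beside high ones in its effector-like cells, 981 and 146 CPM. Set 1 was apart for S100a11 in cells with at least 4 over cells with 0 resting markers, at -3.38, against -2.03 for the next lowest set and -1.86 for the highest. Without the set concerned, every one of these members kept its call in that comparison.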

How the results depend on the processing

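Each member's ratio in each comparison was recomputed under 26 alternatives, and as a difference of the authors' natural log values. Of 1943 recomputed values, 1811 were counted as unchanged, 75 lost a call, 42 gained one and 13 uncalled values moved by more than the spread between sets. Under the 26 alternatives, unchanged meant that a call was kept or that an uncalled value moved by less than that spread. No call rule was applied to the natural log differences, which counted as unchanged unless a called ratio changed sign. By these differences, Lgals3 was higher in 4 of 6 sets of cycling-like over resting-like cells, and S100a4 and Crip1 in 5. The sign changed in 40, of which 38 belonged to 11 uncalled ratios, among them S100a4 (up to 0.26), S100a6 (up to 0.35) and Lgals1 (up to 0.15) in TCR-stimulated-like over resting-like cells. A called ratio reversed in 2: Anxa2 in interferon-response-like over resting-like cells with 3 marker genes (-0.16) and Lgals1 in cells with at least 4 over 0 resting markers without thinning (0.23). In Ccr2 effector-like over resting-like cells 6 members were called under all 26; Anxa2, Vim and Crip1 were called under 25, 24 and 25. S100a11 and Crip1 in TCR-stimulated-like over resting-like cells were called under all 26.

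Counts of called members moved by over 1.5 times as follows. Interferon-response-like higher (2) was 0 with 3 marker genes, totals without ribosomal protein and mitochondrial genes, a 2-fold threshold or thinned levels, 1 with 1 marker gene, seeds 2, 4 and 5, thinning to 500, the mean of the sets' ratios or without myeloid-marker cells, and 4 without thinning. Ccl5 Maf-like lower (1) was 0 with 1 marker gene, seed 4, the 2-fold threshold, without myeloid-marker cells or with Ccr2 dropped from the effector panel; Ccl5 Maf-like higher (6) was 3 with seed 6. TCR-stimulated-like higher (1) was 2 with seed 2, and lower (2) was 1 with seed 5 or the 2-fold threshold. Cells with at least 4 over 0 resting markers had 3 lower with seed 5, and 1 lower and 1 higher without thinning (5 and 0). Cycling-like higher (9) was 4 without myeloid-marker cells, and Ccr2 effector-like over Ccl5 Maf-like (5) was 3 with Ccr2 dropped. Leaving out each set in turn gave 0 to 1 for Ccl5 Maf-like lower and 1 to 3 for interferon-response-like higher. Alternatives with thinned levels, without myeloid-marker cells and without Ccr2 were chosen after seeing the data. Thinned levels gave no value for S100a4 at 4 resting markers, which had 0 UMIs. No paired analysis was possible because the cell columns carry no replicate number from the labels; states were compared within each barcode set instead. Anxa2 and Lgals3 are limited by depth, with under 200 UMIs in each state compared.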

Other observations

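The levels of the members also differed between the 6 barcode sets, whose samples and genotypes are not known. In all Treg cells of sets 1 to 6, S100a11 had 510, 544, 455, 870, 832 and 772 CPM, S100a6 196, 221, 163, 414, 416 and 352 CPM, S100a10 924, 977, 790, 1416, 1337 and 1165 CPM, and Lgals1 435, 475, 397, 677, 666 and 601 CPM. For these 4 members the widest gap in the ordered values lay below sets 4, 5 and 6. S100a4 had 112, 182, 108, 225, 235 and 232 CPM, with the widest gap above sets 1 and 3. Crip1 had 1177, 1300, 1134, 1632, 1596 and 1412 CPM, Vim 356, 308, 301, 445, 385 and 397 CPM, Anxa2 40.3, 38.3, 26.4, 56.3, 45.2 and 36.9 CPM, and Lgals3 25.3, 22.1, 10.5, 34.0, 23.7 and 33.3 CPM, with the widest gap at another place.

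The sets also differed in how many cells were resting-like, 353, 374, 342, 241, 241 and 251. Within resting-like cells alone S100a11 had 207, 253, 249, 545, 432 and 513 CPM, and S100a6 115, 85.6, 75.4, 234, 242 and 216 CPM. For these 2 members the widest gap again lay below sets 4, 5 and 6. S100a10 had 677, 711, 535, 1015, 962 and 845 CPM, with the widest gap above set 3. Lgals1 had 299, 323, 306, 515, 486 and 366 CPM, with the widest gap below sets 4 and 5. The 5 erythroid markers, mostly globin genes, also varied widely between sets, from 2.83 to 267 CPM in all Treg cells. What separates the sets was not tested.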
